A study of Mus musculus with 8 samples.

Results

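The interleukin-1 (IL-1) family and inflammasome genes followed here were 10 genes taken by symbol from the 32227 genes of the deposited count matrices. They were the ligands *Il1a* (ENSMUSG00000027399), *Il1b* (ENSMUSG00000027398) and *Il18* (ENSMUSG00000039217), the receptor antagonist *Il1rn* (ENSMUSG00000026981), the receptors *Il1r1* (ENSMUSG00000026072) and *Il1r2* (ENSMUSG00000026073), the co-receptor *Il1rap* (ENSMUSG00000022514), the binding protein *Il18bp* (ENSMUSG00000070427), and the inflammasome genes *Casp1* (ENSMUSG00000025888) and *Nlrp3* (ENSMUSG00000032691). They were picked by name, with earlier results of these data known.

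IL-1α and IL-1β act on target cells through the type 1 receptor, which pairs with the accessory protein IL1RAP and signals through MYD88. IL-1 receptor antagonist, the product of *Il1rn*, occupies the type 1 receptor without signaling, and the type 2 receptor is a decoy that binds IL-1 without passing on a signal. IL-1β and IL-18 are made as inactive precursors that caspase-1 cleaves once an inflammasome, such as the NLRP3 complex, has assembled, and IL-18 binding protein neutralizes released IL-18. In the brain, microglia and infiltrating phagocytes are known sources of IL-1, and endothelial cells carry its type 1 receptor. The counts measured RNA, and neither cleavage nor release of these proteins was measured.

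Single-cell RNA sequencing with particle-templated partitions (PIPseq) was performed on CD45+ cells taken by magnetic separation from brains of male C57Bl/6J mice aged 5 to 6 months per the labels. The study's methods give another age range for this experiment. Mice had received saline or lipopolysaccharide (LPS), a bacterial endotoxin, as a single intraperitoneal injection of 15000000 EU/kg, 24 h before the brain was taken. Brains were dissociated with either DMSO, the vehicle, or a mix of transcription and translation inhibitors (actinomycin D, triptolide and anisomycin), meant to stop expression changes during dissociation. Each of the 4 combinations had 2 libraries, 1 in each capture batch, so 4 saline libraries were compared with 4 LPS libraries. The brains were not perfused, so blood cells that adhered to or remained in vessels could be among the cells counted.

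The 8 libraries held 90352359 to 141182123 unique molecular identifiers (UMIs) each, and 119053 cells passed the limits of at least 800 and fewer than 45000 UMIs, at least 250 and fewer than 6500 genes, and under 5% mitochondrial UMIs. Marker genes placed 103056 of them in 9 immune and endothelial classes. Saline libraries held 10360 to 13603 microglia, 420 to 822 macrophages, 72 to 183 monocytes and 62 to 180 neutrophils each, and LPS libraries held 8340 to 12493, 275 to 371, 762 to 1136 and 283 to 460. All listed markers of each class were detected in it in both in vivo groups, except that 6 of 8 dendritic cell markers were detected in LPS libraries. Cells were placed by these same markers, so their detection does not test the classes. In LPS macrophages 148 of 371, 111 of 275, 155 of 359 and 124 of 294 cells held only the minimum of 3 markers. With saline these were 51 of 667, 60 of 420, 66 of 658 and 96 of 822. The summed level of the microglia markers within microglia was 37533.5 to 39258.1 CPM (UMIs scaled to a class total of 1000000) in saline libraries and 7171.7 to 8314.0 in LPS libraries, and that of macrophage markers within macrophages was 13595.5 to 14352.9 and 4227.5 to 5279.5. Cells that passed no marker gate made up 2.68 to 3.84% of cells in saline libraries and 10.8 to 13.6% in LPS libraries. Barcodes with at most 99 UMIs, read as free RNA, held 15.5 to 33.7% of all UMIs, and any pair of libraries shared at most 25 cell barcodes.

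Levels are given as CPM, counted within the class and library, and fold changes as log2 values with their standard error (SE) from edgeR's quasi-likelihood test on the class sums of all genes. A member was called where the Benjamini-Hochberg adjusted p over all genes tested in the class was under 0.05. The model for the LPS change also held a term for ex vivo treatment, and samples of a group came from separate mice. Fitted folds rest on TMM scaling, which centers most genes near no change. In microglia the median of all genes was −0.21 with TMM and −0.99 when counts were scaled to total UMIs alone, and the share of called genes that were higher with LPS was 46.8% and 16.2%. The same shift of the median was −0.38 in macrophages, −0.10 in monocytes, −0.23 in neutrophils and −0.21 in endothelial cells, where the share of higher calls moved from 49.9 to 26.1%, from 49.2 to 39.6%, from 51.3 to 33.9% and from 48.9 to 33.8%.

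Promoter sequences are shown for both IL-1 ligands, the antagonist and the decoy receptor, on which the comparison of IL-1 with its blockers turns. Each is the 250 bases before the annotated start from RefSeq, mouse assembly GRCm38.p6, written 5′ to 3′ on the strand of the gene. Capitals mark 3 motifs searched on both strands. The TATA box was searched as TATAAA. The AP-1-like site was searched as TGANTCA, and the κB-like site as 3 G, any 5 bases and 2 C.
Il1a, chr2:129309973-129310222, minus strand: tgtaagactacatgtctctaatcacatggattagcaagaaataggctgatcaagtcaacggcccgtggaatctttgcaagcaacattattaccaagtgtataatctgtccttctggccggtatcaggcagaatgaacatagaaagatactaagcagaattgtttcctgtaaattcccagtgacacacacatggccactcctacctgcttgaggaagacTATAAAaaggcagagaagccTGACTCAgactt
Il1b, chr2:129371140-129371389, minus strand: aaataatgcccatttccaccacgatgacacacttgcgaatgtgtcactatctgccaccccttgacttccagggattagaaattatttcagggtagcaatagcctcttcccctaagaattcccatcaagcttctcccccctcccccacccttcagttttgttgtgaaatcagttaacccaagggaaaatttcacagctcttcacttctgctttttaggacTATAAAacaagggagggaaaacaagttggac
Il1rn, start site 1 of 3, chr2:24336610-24336859, plus strand: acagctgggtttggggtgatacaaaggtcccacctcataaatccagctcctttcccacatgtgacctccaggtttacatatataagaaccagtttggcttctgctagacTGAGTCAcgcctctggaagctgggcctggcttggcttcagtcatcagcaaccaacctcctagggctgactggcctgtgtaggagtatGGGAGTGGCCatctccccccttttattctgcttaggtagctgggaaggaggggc
Il1r2, chr1:40085843-40086092, plus strand: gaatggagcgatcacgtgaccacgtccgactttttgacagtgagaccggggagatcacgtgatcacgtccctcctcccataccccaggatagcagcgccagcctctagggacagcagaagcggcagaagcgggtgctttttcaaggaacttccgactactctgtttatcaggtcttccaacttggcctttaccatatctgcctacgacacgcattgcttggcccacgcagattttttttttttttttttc

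The windows of *Il1a* and *Il1b* each held a TATA box, 32 to 27 and 31 to 26 bases before the start, and that of *Il1a* also held an AP-1-like site 12 to 6 bases before it. *Il1rn* held an AP-1-like site 141 to 135 bases and a κB-like site 54 to 45 bases before its first start, and the window of *Il1r2* held none of these letters. Before start site 3 of *Il1rn*, not printed, lay a κB-like site at 51 to 42 bases and no AP-1-like site. The window of its start site 2 held none of the motifs, and which start the cells used was not tested. RefSeq listed 14 start sites for the 10 genes. A κB-like site was in 6 of them, against 45.8% of 32851 windows of all genes, an AP-1-like site in 2 against 6.75%, and a TATA box in 3 against 12.4%. These matches describe letters only, and the κB-like pattern is too common for its presence to set the members apart.

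Peripheral LPS exposure raised most members in the myeloid classes. In microglia 9 of 10 members rose and none fell, where 59.9% of all genes tested were called, although *Il1rap* and *Casp1* among them turned direction with total UMI scaling. In macrophages 6 of 10 rose and 1 fell (48.3% of all genes called), in monocytes 6 of 10 rose (23.3%), and in neutrophils 6 of the 8 tested rose (27.0%). Among cells that should make little IL-1, 1 of 3 members tested rose in B-cells (8.12%), 2 of 3 in T-cells (17.1%), and none of 1 in natural killer (NK) cells (19.7%). In endothelial cells 2 of 5 rose and 1 fell (41.3%). The median fold change of the members was 1.75 in microglia, 1.03 in macrophages, 1.87 in monocytes and 1.65 in neutrophils, beside medians over all genes of −0.21, −0.05, −0.05 and −0.01. By gene, *Il1rn* rose in 6 of 6 classes in which it was tested, *Il18bp* in 5 of 5, *Il1r2* and *Il1r1* in 4 of 4, *Il1a* in 4 of 5, *Il1b* in 3 of 7 and *Nlrp3* in 3 of 4. *Il1rap* rose in 1 of 4 (microglia), *Casp1* rose in 2 (microglia and neutrophils) and fell in 1 of 7, and *Il18* rose in none and fell in 1 of 4. Members not tested in a class had too few UMIs there, and dendritic cells were too few in LPS libraries for a test. The low-count filter could be met through LPS libraries alone, so the counts of members that rose are not free of this selection. The neutrophil rises of *Il1a*, *Il18bp* and *Casp1* each rested on 14 saline UMIs, and that of *Nlrp3* on 13. In macrophages the rises of *Il1r2*, *Il1r1* and *Il1rn* rested on 14, 16 and 20 saline UMIs. Those of *Il1r1* and *Il18bp* in monocytes rested on 5 and 12. The lymphocyte rises rested on 6 saline UMIs of *Il1rn* in B-cells and, in T-cells, on 3 of *Il1rn* and 16 of *Il1b*.

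**Figure D1:**
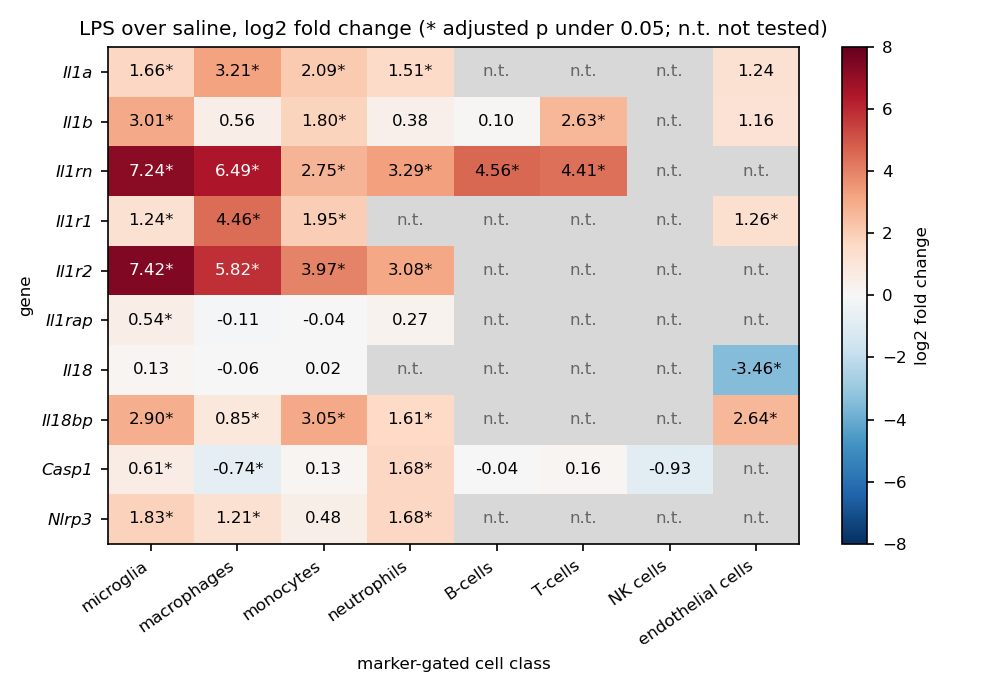
Fitted log2 fold change (LPS over saline) of each member, in rows, in each cell class, in columns, with asterisks on called values and blank cells where the gene was not tested. *Il1rn* and *Il1r2* carry the strongest color in microglia (7.24 and 7.42) and macrophages (6.49 and 5.82), and *Il18* in endothelial cells is the deepest decrease (−3.46).

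The ligand *Il1b* rose in microglia and monocytes but, among the classes tested, had its highest level in neutrophils, with or without LPS. In microglia *Il1b* was at 15.3 and 25.6 CPM in the saline DMSO libraries, 6.76 and 5.68 in the saline inhibitor libraries, 101 and 22.7 in the LPS DMSO libraries, and 59.5 and 39.7 in the LPS inhibitor libraries. The groups overlapped, because LPS DMSO replicate 2 lay below saline DMSO replicate 2. The mean went from 13.3 ± 9.26 to 55.8 ± 33.9 CPM (SD, n = 4 libraries each), and the fitted change was 3.01 (SE 0.42, adjusted p = 3.81e-05). Fitted within the inhibitor libraries alone it was 3.75, and within the DMSO libraries 2.34.

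In monocytes *Il1b* was at 191, 93.5, 125 and 72.9 CPM in saline DMSO and saline inhibitor libraries and at 520, 324, 437 and 233 in the corresponding LPS libraries. No saline library reached the lowest LPS library, and the change was 1.80 (SE 0.26, adjusted p = 0.000176). In neutrophils the saline DMSO libraries held 823 and 854 CPM and the saline inhibitor libraries 1012 and 849, whereas the LPS DMSO libraries held 1914 and 1239 and the LPS inhibitor libraries 642 and 612. The LPS libraries thus lay on either side of the saline libraries according to the ex vivo treatment. The fit over all libraries gave 0.38 (SE 0.29, adjusted p = 0.348). Within DMSO libraries the LPS change was 1.07 (adjusted p = 0.0359) and within inhibitor libraries −0.34 (adjusted p = 0.549), and the test of that difference gave an unadjusted p of 0.00723 and an adjusted p of 0.625.

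Macrophages, the border-associated relatives of microglia, varied widely in *Il1b* among the saline libraries, with 42.1, 150.1, 21.8 and 33.1 CPM, and 167, 39.4, 8.93 and 53.8 with LPS. The groups overlapped widely, and the change of 0.56 (SE 0.46) did not pass the test (adjusted p = 0.329). A stricter gate, which asked for more markers per cell, gave 1.46 (adjusted p = 0.00711). T-cells gave a called change in *Il1b* of 2.63 (SE 0.56, adjusted p = 0.00154), from 10.2 to 57.1 CPM. Free RNA held 54.8 to 165 CPM of *Il1b* in LPS libraries, which made up an estimated 4.70 to 9.13% of T-cell UMIs there, and after its subtraction the change was 2.69 (adjusted p = 0.0164). The call was lost when cells with markers of a second class were kept (0.96, adjusted p = 0.244) and within the DMSO libraries alone (1.74, adjusted p = 0.181), and the change was 3.73 without saline DMSO replicate 2. *Il1b* in B-cells (0.10) and endothelial cells (1.16, adjusted p = 0.265) did not pass, although leaving out saline DMSO replicate 2 gave 3.14 (adjusted p = 0.0199) in endothelial cells.

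*Il1a*, which needs no caspase-1 cleavage to signal, had more UMIs than *Il1b* in microglia. It was at 94.6 and 98.4 CPM in saline DMSO microglia, 64.5 and 60.5 in saline inhibitor microglia, 216 and 63.0 in LPS DMSO microglia, and 155 and 147 in LPS inhibitor microglia. LPS DMSO replicate 2 was again the low library of its group, and it overlapped the saline libraries. The mean went from 79.5 ± 19.8 to 145 ± 63.0 CPM (SD, n = 4 each), a change of 1.66 (SE 0.29, adjusted p = 0.000282), or 0.90 with total UMI scaling (adjusted p = 0.00899). The UMIs mark molecules and not fragments, so no correction for transcript length was made.

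Macrophages changed more in *Il1a*, from 16.4, 7.96, 7.63 and 9.12 CPM to 184, 27.1, 38.0 and 65.7. No LPS library overlapped the saline libraries, and the change was 3.21 (SE 0.43, adjusted p = 8.99e-06), or 2.38 without LPS DMSO replicate 1. *Il1a* also rose in monocytes by 2.09 (SE 0.43, adjusted p = 0.00264), where the call was lost within the DMSO libraries alone (2.02, adjusted p = 0.0598), and in neutrophils by 1.51 (SE 0.46, adjusted p = 0.0194). The neutrophil call was lost without LPS DMSO replicate 1 (1.20), without saline DMSO replicate 2 (1.39), with free RNA subtracted (2.01), with total UMI scaling (1.31) and within the libraries of either ex vivo treatment alone (1.25 with DMSO, 2.07 with inhibitors). Endothelial *Il1a* went from 5.86 to 12.5 CPM, a change of 1.24 with an adjusted p of 0.0507, and of 1.24 with an adjusted p of 0.0447 when the capture batch was fitted as a replicate block. It lay at the threshold: 9 of 22 alternatives gave a call, among them the stricter gate (1.46, adjusted p = 0.0189) and the fit that kept cells with markers of a second class (1.47, adjusted p = 0.00295), and over all 22 the change was 0.67 to 1.63.

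**Figure D2:**
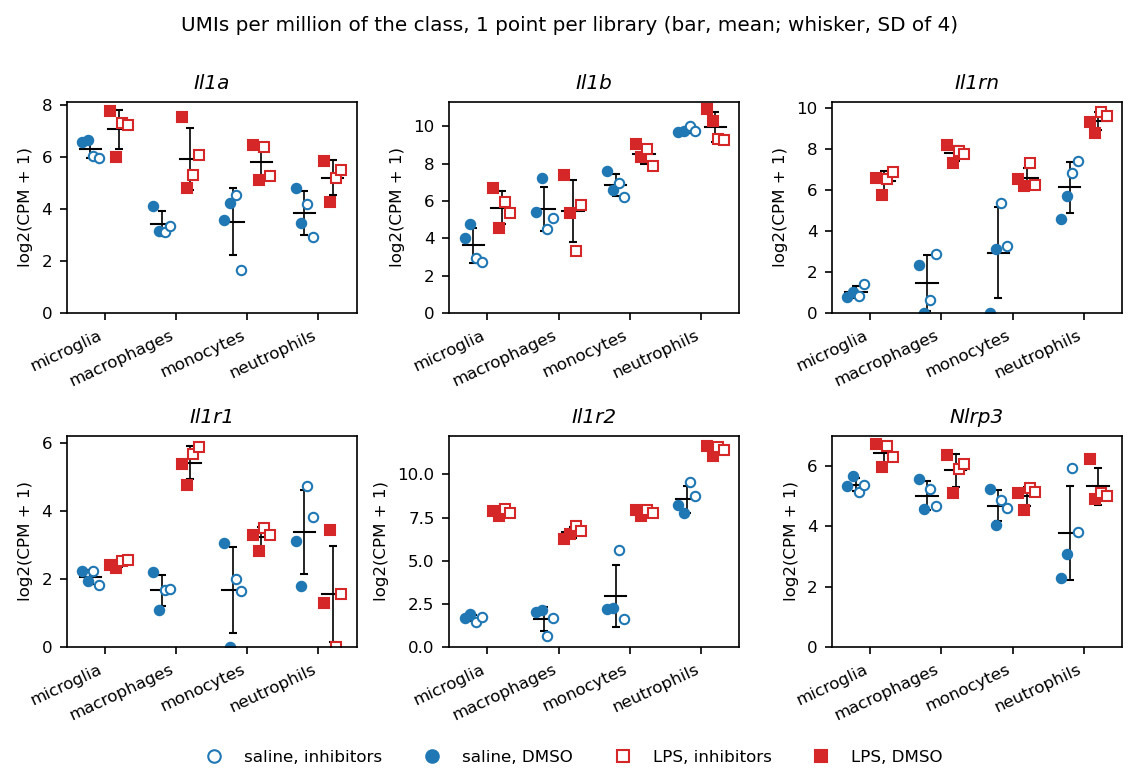
Level of 6 members, 1 per panel, as log2(CPM + 1) in each library (points) of microglia, macrophages, monocytes and neutrophils, with saline and LPS libraries side by side and the ex vivo treatment shown by the marker. *Il1rn* and *Il1r2* separate saline from LPS in each of these classes, whereas *Il1b* overlaps in microglia, macrophages and neutrophils.

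The antagonist and the decoy receptor showed the largest changes of the members tested in microglia, macrophages and neutrophils. In monocytes *Il18bp* (3.05) changed more than *Il1rn* (2.75). *Il1rn* in microglia was at 0.733, 1.05, 0.756 and 1.66 CPM with saline and at 93.2, 52.5, 91.5 and 117 with LPS. The groups lay far apart in all libraries of both ex vivo treatments, and the change was 7.24 (SE 0.31, adjusted p = 8.71e-10). Within inhibitor libraries it was 7.31, and within DMSO libraries 7.14. In macrophages *Il1rn* went from 4.11, 0, 0.545 and 6.27 to 285, 159, 234 and 210 CPM. This change was 6.49 (SE 0.36, adjusted p = 1.77e-10), and it was 7.21 without saline inhibitor replicate 2.

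*Il1rn* was already present in saline neutrophils, at 23.2 and 50.0 CPM in DMSO and 112 and 170 in inhibitor libraries, and reached 633, 431, 873 and 771 with LPS. These LPS neutrophils held the highest level of *Il1rn* of any class tested, and the change was 3.29 (SE 0.33, adjusted p = 1.03e-06). Monocytes went from 0, 7.69, 40.1 and 8.57 to 91.2, 71.0, 155 and 74.9 CPM. Saline inhibitor replicate 1 was the high saline library, with a change of 2.75 with it (SE 0.42, adjusted p = 0.000303) and 3.94 without it. With the stricter gate the monocyte change was 4.35. In lymphocytes the calls rested on few UMIs, 6 and 24 in saline and LPS B-cells (4.56, SE 0.82, adjusted p = 0.000548) and 3 and 36 in T-cells (4.41, SE 0.80, adjusted p = 0.000255). Their mean LPS levels were 65.3 and 45.3 CPM, beside 52.9 to 104 CPM in free RNA, and after subtraction of free RNA the changes were 4.40 (adjusted p = 0.00381) and 4.24 (adjusted p = 0.00436). Within the DMSO libraries alone both calls were lost (4.32 in B-cells, adjusted p = 0.0602, and 3.58 in T-cells, adjusted p = 0.0539). The B-cell change was 3.89 without LPS DMSO replicate 1, and the T-cell change 5.46 without saline DMSO replicate 1. Endothelial cells held no UMI of *Il1rn* with saline and 17 with LPS, and were not tested.

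The decoy *Il1r2* in microglia was at 2.17, 2.74, 1.76 and 2.37 CPM with saline and at 235, 192, 256 and 216 CPM with LPS. No member had a larger fitted change in any class, at 7.42 (SE 0.21, adjusted p = 6.44e-11). In macrophages *Il1r2* rose by 5.82 (SE 0.29, adjusted p = 4.18e-11), from a mean of 2.33 to 100.4 ± 21.5 CPM (SD, n = 4). In neutrophils, which are known for their type 2 receptor, it went from 294, 215, 764 and 424 to 3188, 2180, 3102 and 2696 CPM. In CPM that was the highest mean of any member in any tested class, and the change was 3.08 (SE 0.30, adjusted p = 7.05e-07). Monocytes went from 3.67, 3.84, 47.6 and 2.14 to 244, 192, 244 and 214 CPM, with a change of 3.97 (SE 0.49, adjusted p = 4.46e-05). Without saline inhibitor replicate 1, the library at 47.6 CPM, that change was 6.21, and within the DMSO libraries alone it was 5.95. The monocytes of the 2 in vivo groups differed beyond the members. The 10 genes that led saline monocytes over the other classes included *Prtn3*, *Mpo*, *Elane* and *Ctsg*, granule protease and peroxidase genes of myeloid precursors, and none of these was among the 10 that led LPS monocytes. Their part in the monocyte changes of all members was not tested.

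The signaling receptor *Il1r1* had its highest level in endothelial cells. It was at 59.6, 74.6, 166 and 73.3 CPM in saline and at 240, 160, 232 and 127 in LPS endothelial cells. The LPS library at 127 CPM lay below the saline library at 166, and the change was 1.26 (SE 0.26, adjusted p = 0.00088). Within the inhibitor libraries alone it was 0.78 and was not called (adjusted p = 0.119). In macrophages *Il1r1* went from 3.59, 1.14, 2.18 and 2.28 to 40.8, 25.8, 50.2 and 57.3 CPM. All LPS macrophage libraries lay above all saline ones, with a change of 4.46 (SE 0.31, adjusted p = 2.43e-09). The microglial level stayed low, at a mean of 3.22 CPM with saline and 4.47 with LPS (1.24, SE 0.15, adjusted p = 1.02e-05; 0.46 with total UMI scaling). Monocytes gave 1.95 (SE 0.61, adjusted p = 0.0314), a call lost without saline DMSO replicate 2, saline inhibitor replicate 1 (2.13) or saline inhibitor replicate 2 (2.00), with total UMI scaling (1.85) and within either ex vivo treatment alone (2.02 with DMSO, 1.90 with inhibitors), and equal to 2.56 without saline DMSO replicate 1 and 3.01 with the stricter gate. Neutrophils held 8 and 10 UMIs of *Il1r1* in saline and LPS libraries and were not tested.

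*Il1rap*, the shared co-receptor, had a mean of 12.7 CPM in saline and 10.7 in LPS microglia. With TMM scaling the change was 0.54 (SE 0.14, adjusted p = 0.00434), and with total UMI scaling it was −0.24 (adjusted p = 0.221), so its direction depended on the scaling. The call was also lost within the DMSO libraries alone (0.44, adjusted p = 0.104). In macrophages (−0.11), monocytes (−0.04) and neutrophils (0.27) it did not pass the test.

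The balance of *Il1rn* to *Il1b* within a class was compared as the log2 ratio of their UMIs, with 0.5 UMI added to each, a measure that needs no scaling between libraries. In microglia the ratio was −4.36, −4.59, −3.14 and −1.77 with saline and −0.12, 1.21, 0.62 and 1.56 with LPS. The saline libraries held more UMIs of *Il1b* than of *Il1rn*, and 3 of 4 LPS libraries held more of *Il1rn*. The mean went from −3.46 ± 1.30 to 0.82 ± 0.74 (SD, n = 4 each; two-sided exact permutation p = 0.0286, the smallest that 4 libraries against 4 can give when they are not paired, adjusted over 4 classes 0.0381). Macrophages moved from −4.61 ± 2.50 to 2.34 ± 1.63 and neutrophils from −3.63 ± 1.18 to −0.58 ± 1.13, with no overlap and the same exact permutation p of 0.0286 (adjusted p = 0.0381). Among LPS neutrophils the DMSO libraries were at −1.60 and −1.52 and the inhibitor libraries at 0.44 and 0.33. With at least 1500 UMIs per cell the neutrophil change was 2.69 and did not pass (exact permutation p = 0.0857). In monocytes the groups overlapped (−3.69 ± 2.16 and −1.96 ± 0.47, exact permutation p = 0.143), though the stricter gate gave a change of 2.53 (exact permutation p = 0.0286). That test ignored the pairing of libraries by ex vivo treatment and capture batch. Within the 4 pairs the LPS library was the higher in 4 of 4 in each class, by 3.32 to 5.79 in microglia, 4.05 to 10.04 in macrophages, 0.12 to 4.20 in monocytes and 2.54 to 3.58 in neutrophils. The differences of 10.04 and 4.20 came from saline libraries with 0 UMIs of *Il1rn*, so their size rested on the 0.5 UMI added. With 1 UMI added, the mean change was 6.54 in place of 6.95 in macrophages and 1.43 in place of 1.73 in monocytes. With 16 arrangements within pairs the two-sided exact permutation p was 0.125 in every class, the smallest that they can give, so a paired test could not pass the threshold.

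**Figure D3:**
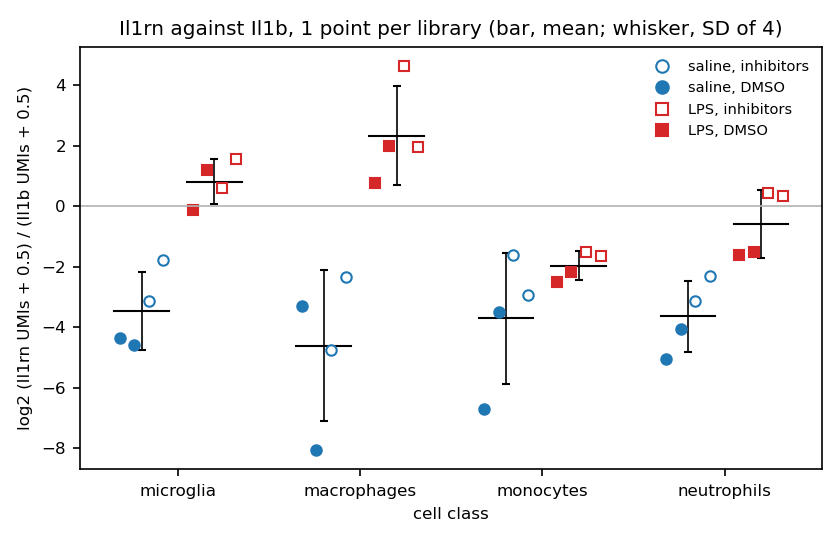
Log2 ratio of *Il1rn* to *Il1b* UMIs in each library (points) by class, saline and LPS side by side, with the mean and SD. The LPS points lie above all saline points in microglia, macrophages and neutrophils, and LPS monocytes stay below 0 with a mean of −1.96.

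*Il18* behaved unlike the IL-1 ligands. In microglia it was at 54.4, 52.3, 58.3 and 56.6 CPM with saline and at 34.4, 32.5, 34.4 and 41.3 CPM with LPS. Every LPS library was lower in CPM, yet the fitted change with TMM scaling was 0.13 (SE 0.12, adjusted p = 0.348) and with total UMI scaling −0.64 (adjusted p = 8.77e-05), so no direction held under both. *Il18* in macrophages (−0.06) and monocytes (0.02) did not pass the test, and neutrophils had too few UMIs. In endothelial cells *Il18* went from 22.4, 26.8, 18.5 and 19.7 to 2.19, 0, 0 and 3.79 CPM. This was the one member that fell there, by 3.46 on the log2 scale (SE 0.58, adjusted p = 0.000122), and it rested on 77 UMIs in saline and 4 in LPS libraries. Without LPS inhibitor replicate 2 the value was −4.14. Free RNA held *Il18* at 45.0 to 67.5 CPM in saline and 34.9 to 39.6 in LPS libraries, and the change was −4.90 after free RNA was subtracted. The summed microglia markers in endothelial cells were 3001.6 to 3606.4 CPM with saline and 1310.1 to 2354.0 with LPS. Within microglia the same markers were 37533.5 to 39258.1 and 7171.7 to 8314.0 CPM, so their sum does not measure microglial RNA alike in both groups. The part of microglial RNA in the *Il18* result was not tested.

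*Il18bp*, which neutralizes IL-18, rose in 5 classes. Endothelial cells went from 8.70, 19.7, 5.84 and 8.46 to 49.3, 66.7, 61.0 and 51.2 CPM, a change of 2.64 (SE 0.30, adjusted p = 1.83e-06) opposite in direction to that of *Il18* in the same cells. In microglia it went from 3.75, 3.51, 3.65 and 2.68 to 18.2, 13.2, 13.2 and 14.9 CPM (2.90, SE 0.15, adjusted p = 3.73e-09). Both classes had LPS libraries that all lay above the saline libraries. Macrophages had the highest saline level of these classes, at 30.7 CPM, and rose to 42.6 (0.85, SE 0.17, adjusted p = 0.000596; 0.48 with total UMI scaling, adjusted p = 0.0349). Monocytes rose from 5.61 to 42.8 CPM (3.05, SE 0.43, adjusted p = 0.000141), or by 3.85 without saline inhibitor replicate 1. Neutrophils rose by 1.61 (SE 0.49, adjusted p = 0.0193), with 2.48 without saline inhibitor replicate 2. That call was lost without saline DMSO replicate 1 (1.26) or saline DMSO replicate 2 (1.57), with at least 1500 UMIs per cell (1.40), with free RNA subtracted (1.52) and with total UMI scaling (1.41). Within inhibitor libraries it was 0.56 (adjusted p = 0.565) and within DMSO libraries 2.93.

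The sensor *Nlrp3* rose in microglia, macrophages and neutrophils. In microglia it was at 39.2, 49.6, 34.6 and 40.6 CPM with saline and at 106, 61.9, 99.7 and 78.1 with LPS. The groups did not overlap, and the change was 1.83 (SE 0.18, adjusted p = 1.79e-06), or 1.08 with total UMI scaling (adjusted p = 5.96e-05). In macrophages it rose by 1.21 (SE 0.24, adjusted p = 0.00042), and in monocytes the change of 0.48 did not pass (adjusted p = 0.181), though it did when cells with markers of a second class were kept (0.74, adjusted p = 0.0438). Neutrophils ranged from 3.87, 7.49, 60.1 and 13.1 to 74.8, 29.3, 33.8 and 31.0 CPM. A saline library exceeded 3 of the 4 LPS libraries, and the call of 1.68 (SE 0.54, adjusted p = 0.0262) was lost without saline DMSO replicate 1 (1.34), saline DMSO replicate 2 (1.39) or LPS DMSO replicate 1 (1.21), and became 2.76 without saline inhibitor replicate 1. It was also lost with DESeq2 (1.58), the stricter gate (1.43), free RNA subtracted (1.87) and total UMI scaling (1.45), and it was 2.64 with at least 1500 UMIs per cell. Within inhibitor libraries it was 0.18 (adjusted p = 0.887) and within DMSO libraries 3.19 (adjusted p = 0.0035), with an adjusted p of 0.625 for the difference.

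*Casp1*, the protease that matures IL-1β and IL-18, moved in opposite directions in macrophages and neutrophils. Macrophages went from 99.1, 79.6, 88.8 and 83.8 to 48.0, 35.7, 40.2 and 39.4 CPM. All LPS libraries lay below all saline libraries, and *Casp1* fell by 0.74 (SE 0.15, adjusted p = 0.000721), with −1.12 under total UMI scaling. Neutrophils went from 23.2, 9.99, 8.58 and 19.6 to 50.3, 36.3, 33.8 and 51.3 CPM, without overlap, on 14 UMIs with saline and 134 with LPS. *Casp1* rose there by 1.68 (SE 0.40, adjusted p = 0.00449), a call lost within the inhibitor libraries alone (1.76, adjusted p = 0.101). Microglia were at 57.0, 53.2, 55.6 and 49.7 CPM with saline and 58.4, 49.2, 42.7 and 43.8 with LPS. Their fitted change was 0.61 (SE 0.11, adjusted p = 0.000325) with TMM and −0.16 (adjusted p = 0.188) with total UMI scaling, so this direction depended on the scaling too. Monocytes (0.13), B-cells (−0.04), T-cells (0.16) and NK cells (−0.93, adjusted p = 0.0982) did not pass the test, though a looser gate gave −1.13 in NK cells (adjusted p = 0.0473).

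In neutrophils the markers of other cell types moved with LPS as well. Summed choroid plexus markers were 2957.1 to 13256.3 CPM with saline and 1036.7 to 1958.9 with LPS, microglia markers 2118.2 to 3766.1 and 1044.1 to 1248.8, and monocyte markers 2547.9 to 6363.8 and 8206.2 to 12327.7. The monocyte list held *Chil3*, *Plac8* and *Ifitm6*, which immature neutrophils also hold. *Chil3* and *Ifitm6* were among the genes that led LPS neutrophils over the other classes, so the monocyte sum does not measure monocyte RNA alone. In macrophages the neutrophil markers went from 151.4–299.1 to 541.5–796.3 CPM and the microglia markers from 3694.5–4246.3 to 645.1–953.5, and in microglia the neutrophil markers went from 376.8–539.3 to 545.8–685.3. The microglia markers also fell within microglia, from 37533.5–39258.1 to 7171.7–8314.0 CPM. Choroid plexus markers fell there too, from 2269.8–9621.5 to 430.5–862.5, so their fall was not particular to neutrophils. The part of other cell types or of their RNA in the member changes was not tested. After subtraction of free RNA, *Il1r2* in microglia rose by 7.86, *Il1rn* by 7.53 and *Il1b* by 3.13. In neutrophils the subtraction ended the calls of *Il1a* (adjusted p = 0.0674), *Il18bp* (adjusted p = 0.0554) and *Nlrp3* (adjusted p = 0.075), while *Casp1* rose by 2.03 (adjusted p = 0.0112).

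The size of the LPS change on the log2 scale was then compared between microglia and the other myeloid classes. In this fit, with the library as a block, 14 of 30 member differences were called. The 30 held *Il1r1* and *Il18* in neutrophils, which passed the low-count filter of the joint fit with microglia but rested on 8 and 10 and on 7 and 31 neutrophil UMIs with saline and LPS, too few for a test within neutrophils, and neither was called. Without LPS DMSO replicate 2 the *Il1r1* difference was −3.57 and was called (adjusted p = 0.0122). Against microglia, 7 of 10 members differed in macrophages (26.9% of all genes called), 3 in monocytes (23.1%) and 4 in neutrophils (13.9%). Macrophages responded more in *Il1r1*, by 3.27 (SE 0.39), and in *Il1a*, by 1.49 (SE 0.22, adjusted p = 1.16e-09), which was 0.94 without LPS DMSO replicate 1 and 2.39 with free RNA subtracted. They responded less in *Il1b* (−2.27, SE 0.19; −1.47 with the stricter gate), *Il18bp* (−2.06, SE 0.22), *Il1r2* (−1.58, SE 0.46, adjusted p = 0.0042), *Casp1* (−1.36, SE 0.16) and *Nlrp3* (−0.71, SE 0.18, adjusted p = 0.000532). The *Il1r2* difference was lost without saline DMSO replicate 1 (−1.06), saline DMSO replicate 2 (−1.29) or saline inhibitor replicate 2 (−1.36) and with cells of a second class kept (−1.12). The *Nlrp3* difference was lost without saline DMSO replicate 1 (−0.25) or saline inhibitor replicate 1 (−0.35), with DESeq2 (−0.44) and with total UMI scaling (−0.30).

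Neutrophils, which started from much higher levels, had smaller log2 changes than microglia in *Il1r2* (−4.04, SE 0.31), *Il1rn* (−3.52, SE 0.35) and *Il1b* (−2.20, SE 0.28). In CPM the neutrophil means went from 424 to 2791 for *Il1r2* and from 88.6 to 677 for *Il1rn*. The microglial means went from 2.26 to 225 and from 1.05 to 88.5. Neutrophils responded more in *Casp1* (1.35, SE 0.43, adjusted p = 0.0164), which was lost without saline DMSO replicate 2 (1.30). It was also lost when cells with markers of a second class were kept (0.64, adjusted p = 0.231), with the stricter gate (1.06) and with at least 1500 UMIs per cell (1.12). Monocytes responded less in *Il1rn* (−4.17, SE 0.58, adjusted p = 1.41e-06), *Il1r2* (−3.14, SE 0.54, adjusted p = 3.78e-05) and *Nlrp3* (−1.02, SE 0.29, adjusted p = 0.00848). All 3 monocyte differences leaned on saline inhibitor replicate 1, without which they were −2.61 (adjusted p = 0.00416), −0.70 (adjusted p = 0.531) and −0.77 (adjusted p = 0.0786), so that the latter pair lost their calls. Without saline DMSO replicate 2 the *Il1r2* difference was −3.73. DESeq2 did not call that of *Il1r2* (−2.11, adjusted p = 0.116), and with total UMI scaling that of *Nlrp3* was lost (−0.69, adjusted p = 0.0741). With the stricter gate the *Il1rn* difference was −2.45. The monocyte differences in *Il1a* (0.80) and *Il1b* (−0.74) were not called, but each was called in 3 alternatives, at 1.10 to 1.30 for *Il1a* and −1.29 to −0.72 for *Il1b*. The differences of *Il1rap* and *Il18* did not pass the test in any of the 3 classes, except that *Il18* in neutrophils, with too few UMIs for a test in that class alone, did with the looser gate (1.68, adjusted p = 0.0217).

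Because microglia were most of the cells, they held a large part of the UMIs also of members whose level was higher in another class. Microglia made up 87.8% of gated cells in saline and 85.0% in LPS libraries on average. Of the UMIs within the 9 classes they held 98.3% and 96.1% for *Il1a*, 93.4% and 94.7% for *Il18* and 94.0% and 96.1% for *Nlrp3*. *Il1b* was spread more widely. With saline, microglia held 48.9% (34.8 to 56.9% over libraries), neutrophils 25.4%, macrophages 10.015% and monocytes 8.57% of its UMIs within the classes. With LPS these were 56.4% (33.8 to 66.5%), 15.8% (7.44 to 30.2%), 0.974% and 26.3% (21.4 to 34.5%). Neutrophils were 0.781% of gated cells with saline and 2.80% with LPS. For the IL-1 blockers the microglial share was the larger with LPS: that of *Il1rn* went from 50.6 to 82.2% and of *Il1r2* from 42.4 to 81.5%, while the neutrophil share went from 24.7 to 8.06% and from 47.1 to 12.7%. For *Il1r1*, microglia held 52.4% of UMIs with saline and 57.8% with LPS, endothelial cells 40.4% and 25.2% at 1.61 and 1.03% of cells, and macrophages 2.00 and 8.28%. *Il18bp* UMIs came from microglia (61.4%) and macrophages (27.3%) with saline, and from microglia (76.4%) and monocytes (13.7%) with LPS. These shares carry the numbers of cells and the UMIs per cell together, since microglia had a median of 2226 to 3210 UMIs per cell with saline and 4844.5 to 5595 with LPS.

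**Figure D4:**
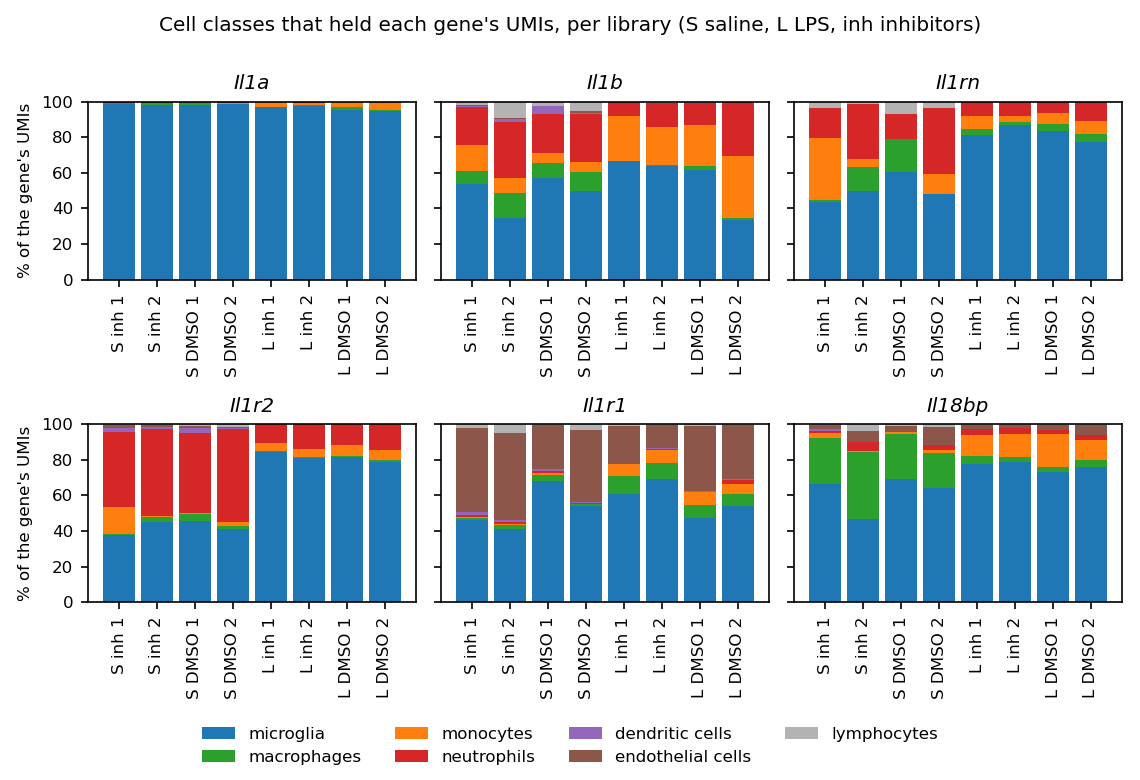
Percent of the UMIs of 6 members, 1 per panel, that lay in each gated cell class, as stacked bars for each of the 8 libraries. Cells without a class, with markers of more than 1 class or of set-aside types are not counted. The microglial part of *Il1rn* and *Il1r2* is larger in LPS than in saline libraries (means of 82.2% against 50.6% and 81.5% against 42.4%), and *Il1b* is shared among microglia, neutrophils, macrophages (7.09 to 14.0%) and monocytes in saline libraries and among microglia, monocytes and neutrophils in LPS libraries.

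Shares of cells with at least 1 UMI were compared after each cell was thinned to 800 UMIs. In microglia *Il1b* was found in 0.619% of thinned cells with saline and 2.91% with LPS, *Il1rn* in 0.0626% and 5.96%, *Il1r2* in 0.158% and 12.9%, and *Il1a* in 5.85% and 9.32%. Without thinning the LPS shares were 8.50%, 26.0%, 33.1% and 31.1%. T-cells, which should lack these genes, had shares of 0.709% for *Il1b*, 1.87% for *Il1rn* and 0.455% for *Il1r2* in LPS libraries, at a median of 2232 to 2804 UMIs per cell before thinning, and B-cells 2.62% for *Il1b* and 2.11% for *Il1rn*. The mean microglial share of *Il1b* was near that of B-cells and above that of T-cells. The B-cell share of *Il1b* ranged from 0 to 4.65% over LPS libraries of 22 to 77 B-cells, too few cells to set a level. The microglial share ranged from 1.44 to 5.35% and rested on 1309 cells with *Il1b*. The mean microglial shares of *Il1rn* and *Il1r2* were above those of both lymphocyte classes. In neutrophils the shares went from 29.1 to 41.8% for *Il1b*, from 8.68 to 39.8% for *Il1rn* and from 28.7 to 77.1% for *Il1r2*. All of these neutrophil shares were above those of lymphocytes, at median depths of 1388 to 2075.5 and 1397 to 1551.5 UMIs.

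*Il1b* was concentrated in few microglia. The 1% of LPS microglia with most *Il1b* UMIs held 33.2 to 62.1% of them, and a single cell held up to 117. The same 1% held 17.3 to 19.4% for *Il1rn*, 14.9 to 18.7% for *Il1r2*, 14.6 to 24.1% for *Il1a* and 9.44 to 12.3% for *Nlrp3*, so *Il1b* was the most unevenly spread of the 5. Among thinned LPS microglia, *Il1a* was found in 17.5 to 45.3% of cells with *Il1b* and in 4.17 to 12.7% of cells without it, over the 4 libraries. *Il1rn* did not separate in this way, with 2.50 to 12.7% of *Il1b*-positive and 3.61 to 7.89% of *Il1b*-negative microglia. In LPS neutrophils *Il1rn* was found in 42.5 to 78.1% of cells with *Il1b* and in 19.2 to 38.5% of those without. These are shares within libraries of cells that are not replicates, and cells of 1 library also share its free RNA.

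The next question was whether ex vivo inhibition altered the members. None of the 38 member tests in the 4 myeloid classes was called between DMSO and inhibitor libraries by edgeR, and none by DESeq2, with 5 at an unadjusted p under 0.05. The background was 0.364% of genes called in microglia, 0.587% in macrophages, 0.0498% in monocytes and 0.196% in neutrophils. Of all genes, edgeR gave an unadjusted p under 0.05 for 884 of 22250 in microglia and 412 of 9887 in macrophages. In monocytes it did so for 379 of 12048 and in neutrophils for 454 of 7143. In the same fits the dissociation genes were far higher in DMSO libraries, with 12 of 12 called in microglia and in macrophages, 6 of 12 in monocytes and 4 of 11 in neutrophils. Their medians were 3.595, 3.90, 1.87 and 1.83, and *Fosb* (5.96) and *Fos* (5.84) led them in microglia.

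The largest member difference was that of *Il1b* in macrophages, with a mean of 99.6 ± 68.3 CPM in DMSO and 29.4 ± 19.0 in inhibitor libraries (SD, n = 4 each; 1.76, SE 0.46, adjusted p = 0.176). With the capture batch as a replicate block it was 1.80 with an adjusted p of 0.0147, without saline DMSO replicate 1 it was 2.14 (adjusted p = 0.00388), and without LPS DMSO replicate 2 it was 1.99 (adjusted p = 0.0165). *Il1b* was nominally higher with DMSO also in neutrophils (0.71, SE 0.29, adjusted p = 0.73) and microglia (0.95, SE 0.40, adjusted p = 0.9998). Without LPS DMSO replicate 2 the microglial difference was 1.40 and passed (adjusted p = 0.0254), as did *Il1a* in macrophages (1.43, adjusted p = 0.00912, against 0.97 with all libraries). *Il1rn* in neutrophils pointed the other way (−0.97, SE 0.31, adjusted p = 0.469). The LPS DMSO replicate 2 library was the lowest of the 4 LPS libraries in *Il1a* and *Il1b* in microglia.

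Whether the LPS change itself differed between DMSO and inhibitor libraries was tested by an interaction term. None of 38 member tests was called by edgeR or DESeq2 (0.0225% of all genes called in microglia, 0.0% in macrophages and monocytes, 0.014% in neutrophils), with 4 at an unadjusted p under 0.05. Counted as DMSO minus inhibitors, these were *Nlrp3* (3.01, SE 0.99), *Il18bp* (2.37, SE 0.95) and *Il1b* (1.41, SE 0.46) in neutrophils and *Il1r2* in monocytes (2.82, SE 1.05). With 2 libraries per combination, intervals of this width do not show that the treatments left these responses alike. Of all genes, edgeR's interaction test gave an unadjusted p under 0.05 for 414 of 22250 in microglia and 298 of 9887 in macrophages. In monocytes it did so for 638 of 12048 and in neutrophils for 459 of 7143.

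Other genes of the pathway moved in both directions. Of 15 IL-1 receptor relatives and signal transducers, 6 rose and 4 fell in microglia (59.9% of all genes called), 7 rose and 2 fell of 12 tested in macrophages (48.3%), 3 rose and 1 fell of 13 in monocytes (23.3%), and 3 of 10 rose in neutrophils (27.0%). *Irak3*, a kinase-dead brake on IL-1 and Toll-like receptor signaling, rose in all 4 classes, by 4.53, 3.05, 2.61 and 3.07. *Il18rap*, the co-receptor for IL-18, rose by 4.36 in microglia, 6.39 in macrophages and 1.15 in monocytes, and *Sigirr*, another inhibitory receptor, fell by 0.88 in microglia. *Myd88*, the shared adaptor, rose by 1.08 in macrophages and 0.86 in neutrophils, and *Irak2*, a signaling kinase, was at −1.24 in monocytes and 1.01 in neutrophils. *Irak1* (1.04 in microglia), *Il1rl2*, the IL-36 receptor (2.60 in macrophages), and *Traf6* (1.38 in monocytes) were the others among the 4 most changed per class. The 6 other IL-1 family ligands were nearly absent, with 1 tested in microglia (−0.43) and 1 in neutrophils (0.66), neither called.

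Of 22 further inflammasome genes, 8 rose and 6 fell of 21 tested in microglia (59.9% of all genes called), 5 and 4 of 16 in macrophages (48.3%), 4 and 6 of 20 in monocytes (23.3%), 5 and 2 of 16 in neutrophils (27.0%), and 7 and 2 of 13 in endothelial cells (41.3%). *Pycard*, the adaptor that links sensors to caspase-1, rose by 1.37 in microglia, 2.34 in macrophages, 1.77 in monocytes and 2.52 in neutrophils. *Gbp2*, an interferon-induced guanylate-binding protein, rose by 3.86, 1.82, 2.33 and 3.74 in the same classes. The sensor *Nlrp1b* fell in microglia (−1.66), macrophages (−2.12) and monocytes (−1.49), and *Txnip*, an inhibitor of thioredoxin, fell in macrophages (−1.83) and monocytes (−1.54). *Nlrc4*, the flagellin-pathway sensor, rose by 1.66 in microglia, while *Casp4* (1.81), the intracellular LPS sensor, and *Ninj1* (1.71), which ruptures the plasma membrane, rose in neutrophils.

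The genes whose level was most like that of 2 members were sought over the 64 sums of 8 testable classes and 8 libraries, which share libraries and differ in depth. For *Il1b*, the highest Pearson r of log2(CPM + 1) was with *C3* (0.834), *Il17ra* (0.824), *B430306N03Rik* (0.812), *Pirb* (0.806) and *Cebpb* (0.805). For *Il1rn* it was with *Fpr3* (0.874), *Clec4e* (0.862), *Cd300lf* (0.862), *Fpr2* (0.855) and *Fcgr4* (0.849). The lists had no gene in common.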

How the data were processed

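The deposited files were UMI counts per gene and barcode, made by the authors with PIPseeker and the STAR aligner on the mouse genome (written GRCmm39 in their methods), without pooling of replicates; the submitters' processing notes also name Seurat 4. The build has no matching sequence here, so promoter coordinates come from RefSeq GRCm38.p6, whose table matched all 10 members, and no coordinate was taken from the count files.

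Cells were kept within the limits given above. A class was present in a cell where at least 3 of its markers were detected and their UMIs exceeded, by 3 times the square root of expectation plus 1, those expected if 20% of the cell were free RNA (barcodes with at most 99 UMIs). The class with the largest share of its markers detected was taken, and 346 to 932 cells per library whose second class reached 0.5 of that share were left out as possible doublets. This scoring rule was set after seeing the data. The monocyte markers *Chil3*, *Plac8* and *Ifitm6* are also held by immature neutrophils. In a cell placed as a neutrophil, monocytes therefore counted as a second class only where the share of the other monocyte markers exceeded 0.5 of the neutrophil share. The members, the gene lists and the tests were chosen with earlier results of these data known.

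Counts were summed per class and library (at least 10 cells) and tested in edgeR 4.0.16 (R 4.3.3, limma 3.58.1) by the quasi-likelihood test, with TMM scaling, the low-count filter filterByExpr and Benjamini-Hochberg adjustment over all genes tested. LPS and ex vivo treatment entered as additive terms, then with their interaction. Class differences were fitted with a library block. Alternatives were DESeq2 1.42.0, other scalings, filters, gates and depth limits, subtraction of free RNA, a replicate block and leaving out each library. Ratios were tested by exact permutation (scipy 1.17.1). The fitting code was run on simulated data with few changed genes and a fixed spread, which could not test the scaling where many genes change. Named genes of other lists were, per list and class, up to 4 with the largest absolute change among those called, and 5 genes by correlation for *Il1b* and *Il1rn*.

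Each library is 1 mouse, and libraries of the same replicate number share a capture batch per the labels. In microglia, the deviations of replicate 1 from the group means correlated at 0.0793 to 0.489 between the 4 groups over 22250 genes. Whether the counting used strand is not given in the sources used here, and exons of *Il1a*, *Il1b*, *Il1rap* and *Il18bp* overlap opposite-strand genes (*Gm14023*, *Il1bos*, *Gm20319* and *Numa1*) in GENCODE M21, so reads of these pairs could be mixed.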

Additional observations from a re-analysis of the deposited data

Results flagged for a closer look

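Of 80 groups of 4 libraries examined for a library apart from the rest, 7 held one; chance alone marks about 1 in 20 groups. *Il1a* in saline macrophages was at 16.4 CPM in saline DMSO replicate 1, and *Il1b* in saline macrophages at 150.1 CPM in saline DMSO replicate 2. Saline inhibitor replicate 1 stood apart in *Il1b* (1012 CPM) and *Nlrp3* (60.1 CPM) in neutrophils and in *Il1r2* (47.6 CPM) in monocytes. In that library free RNA, estimated from choroid plexus markers, made up 21.0% of neutrophil UMIs, the highest of the 8 libraries. The free RNA of that library itself held 15.9 CPM of *Il1b*, 33.7 of *Nlrp3* and 12.6 of *Il1r2*, each below the level in the cells. Its part in these levels was not tested. *Casp1* in saline monocytes was at 99.1 CPM in saline DMSO replicate 1, and *Nlrp3* in LPS neutrophils at 74.8 CPM in LPS DMSO replicate 1.

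Of 30 pairs of a member and a class, 14 differed from microglia in the LPS change by the test of the difference. In macrophages the differences in log2 units were 1.49 for *Il1a*, −2.27 for *Il1b*, 3.27 for *Il1r1*, −1.58 for *Il1r2*, −2.06 for *Il18bp*, −1.36 for *Casp1* and −0.71 for *Nlrp3*. In monocytes they were −4.17 for *Il1rn*, −3.14 for *Il1r2* and −1.02 for *Nlrp3*, and in neutrophils −2.20 for *Il1b*, −3.52 for *Il1rn*, −4.04 for *Il1r2* and 1.35 for *Casp1*.

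Cells that passed no marker gate entered the comparisons only where an alternative counted them as microglia. Of the 10 members, 4 were higher there in every LPS library than in every saline library. Their mean LPS levels were 131 CPM for *Il1a* (16.2 with saline), 196 for *Il1rn* (7.04 to 16.4 over the saline libraries), 107 for *Il1r2* (14.7 with saline) and 67.2 for *Nlrp3* (27.2 with saline). The groups overlapped in the rest. Saline and LPS means were 206 and 155 CPM for *Il1b*, 60.4 and 45.2 for *Casp1* and 32.2 and 31.2 for *Il18*. They were 13.4 and 10.8 for *Il1rap*, 14.5 and 22.6 for *Il18bp* and 7.80 and 12.1 for *Il1r1*. The share of all genes that separated in this way was not counted. Whether the same cell types lay outside the gates in both groups was not tested.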

How the results depend on the processing

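LPS changes of members were recomputed in 1140 fits, of which 1089 stayed on their side of the threshold (in 50 of these a value that was not called changed sign), 34 lost the call, 14 gained one and 3 reversed with a call in 1 of the fits. These 3 were in microglia with total UMI scaling, at −0.24 for *Il1rap*, −0.64 for *Il18* and −0.16 for *Casp1*. The 34 LPS calls became 28 to 38 over alternatives (29 with total UMI scaling, 31 with free RNA subtracted, 31 to 35 without single libraries) and 19 where an absolute log2 change over 2 was also required. With the replicate block there were 35 LPS calls, and 1 DMSO call where the fit without the block had none; beside *Il1a* in endothelial cells and *Il1b* in macrophages with DMSO the block changed no other call. DMSO calls were 2 without the low-count filter and 0 to 3 without single libraries. The 14 class differences became 12 to 16, and the interaction gave none in any setting. The *Il1rn* to *Il1b* ratio in monocytes rose by 2.53 with the stricter gate (exact permutation p = 0.0286), and in neutrophils by 2.69 with at least 1500 UMIs per cell (exact permutation p = 0.0857); paired as a replicate block, the mean changes of 4.28 in microglia, 6.95 in macrophages and 3.05 in neutrophils had an exact permutation p of 0.125, the smallest 4 pairs can give; without single libraries the ratio change was 3.90 to 4.84 in microglia, 5.80 to 7.70 in macrophages, 0.728 to 2.43 in monocytes and 2.58 to 3.49 in neutrophils. Unthinned shares of LPS microglia were 8.50% for *Il1b*, 26.0% for *Il1rn* and 33.1% for *Il1r2*. The causes were not tested. Total UMI scaling, the paired ratio test, a looser gate and counting cells without a class as microglia were chosen after seeing the data. Few UMIs left members untested in lymphocytes and few cells left dendritic cells untested, and with 2 libraries per combination small interactions were not detectable.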

Other observations

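Dendritic cells, professional antigen-presenting cells, were too few for a test but are described with a looser gate that asked for 2 markers, which left 23 to 51 cells per library. *Il1b* was at 320.6, 174.5, 16.3 and 39.5 CPM in the saline libraries and at 1607, 786, 1539 and 444 CPM in the LPS libraries, all above the saline values. *Il1rn* had no UMI in any saline library and stood at 595, 814, 1147 and 804 CPM in the LPS libraries. The leading genes of these cells were not the same in both groups. With the 3-marker gate, which kept 23 to 35 cells per saline and 2 to 10 per LPS library, they included *Cd209a*, *H2-Ab1* and *H2-Eb1* with saline and *Ccr7*, *Ccl17* and *Ccl22* with LPS. The looser gate was chosen after seeing the data.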
